A study of Mus musculus with 2 samples.

Results

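The 996 chromatin loops described here were listed in mouse cortex after experimental stroke and had no counterpart nearby in the cortex of sham animals. They were chosen by a rule on measured values from the 15592 loops of the stroke list, of which 2978 lie on autosomes and are joined by at least 21 paired-end tags (PETs, read pairs that link the 2 anchors of a loop). A loop was kept when no sham loop of any PET number had both anchor midpoints within 2 anchor widths of its own, with the wider of the compared anchors taken at each side. The 1982 other loops of at least 21 PETs are called partnered below, and the 996 are called MCAO-only. The name refers to the lists, since both lists begin at 10 PETs and a sham contact below that number would not be listed.

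Hi-C, which ligates and reads out stretches of DNA that touch in the nucleus, was carried out on frozen cortex from the operated side of mice. In the stroke group, called MCAO for middle cerebral artery occlusion, a filament blocked that artery for 1 h, and tissue was taken 6 h after blood flow was restored. Sham mice had the operation without the filament being advanced and without occlusion, and were also sampled after 6 h. The labels name 3 cortices per group and give no strain, sex or age, and a single loop list per group was analysed. No difference between the groups therefore has a replicate check, no test between the groups was made, and intervals (95%, exact or from order statistics) cover counting error only. Loop lists hold no expression values, so the tissue label could not be checked against marker genes.

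Loops between distant anchors are a regular feature of mammalian chromosomes. Many are held by the ring-shaped cohesin complex, which extrudes DNA until it meets the DNA-binding protein CTCF, and others join promoters to enhancers or to other promoters. In neurons such loops are known around long genes for receptors, adhesion molecules and guidance cues, and activity or injury is known to change transcription from many promoters. A loop in a list says that 2 segments met more often than the caller's background, and says nothing of which genes were transcribed.

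The promoters of 5 genes with 2 or 3 MCAO-only loops at their ends are shown because those genes recur in the results, 4 of them with a motif match and Grik2 without. The sequences are from RefSeq (GRCm38.p6, the assembly of mm10), run from 250 bases before to 50 bases after a transcription start, and have matches to the searched motifs in capitals. The Irs2 promoter, of an adaptor protein of insulin signalling, lies at chr8:11008880-11009179 on the minus strand. The Lrrc4c promoter, of a synaptic adhesion protein that binds netrin-G1, lies at chr2:96317919-96318218 on the plus strand. The Flrt2 promoter, of an adhesion protein that also binds guidance receptors of the Unc5 family, lies at chr12:95691976-95692275 on the plus strand. The Cpne4 promoter, of a calcium-dependent membrane-binding protein, lies at chr9:104569405-104569704 on the plus strand. The Grik2 promoter, of a kainate receptor subunit, lies at chr10:49788705-49789004 on the minus strand.
Irs2: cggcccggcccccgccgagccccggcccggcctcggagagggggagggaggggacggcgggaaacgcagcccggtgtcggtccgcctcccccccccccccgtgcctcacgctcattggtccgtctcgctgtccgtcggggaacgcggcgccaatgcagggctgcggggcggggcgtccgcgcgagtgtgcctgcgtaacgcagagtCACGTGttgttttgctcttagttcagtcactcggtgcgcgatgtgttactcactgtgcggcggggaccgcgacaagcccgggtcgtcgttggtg
Lrrc4c: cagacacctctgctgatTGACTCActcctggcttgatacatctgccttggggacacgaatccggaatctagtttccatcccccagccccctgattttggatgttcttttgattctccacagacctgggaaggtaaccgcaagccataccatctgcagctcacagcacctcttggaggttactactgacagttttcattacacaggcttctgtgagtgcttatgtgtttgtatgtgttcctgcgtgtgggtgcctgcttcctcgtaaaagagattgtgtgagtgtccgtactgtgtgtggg
Flrt2: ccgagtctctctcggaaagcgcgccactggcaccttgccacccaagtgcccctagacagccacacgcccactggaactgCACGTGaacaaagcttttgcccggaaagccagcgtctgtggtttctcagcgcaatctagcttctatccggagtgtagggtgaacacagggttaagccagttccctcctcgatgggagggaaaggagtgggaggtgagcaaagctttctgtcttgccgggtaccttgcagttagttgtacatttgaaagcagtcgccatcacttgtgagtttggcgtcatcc
Cpne4: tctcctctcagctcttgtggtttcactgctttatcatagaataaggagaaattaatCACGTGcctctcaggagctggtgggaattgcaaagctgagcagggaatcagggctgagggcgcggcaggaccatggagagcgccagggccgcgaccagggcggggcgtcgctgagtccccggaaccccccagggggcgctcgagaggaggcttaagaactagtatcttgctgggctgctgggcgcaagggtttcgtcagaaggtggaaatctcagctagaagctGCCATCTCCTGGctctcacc
Grik2: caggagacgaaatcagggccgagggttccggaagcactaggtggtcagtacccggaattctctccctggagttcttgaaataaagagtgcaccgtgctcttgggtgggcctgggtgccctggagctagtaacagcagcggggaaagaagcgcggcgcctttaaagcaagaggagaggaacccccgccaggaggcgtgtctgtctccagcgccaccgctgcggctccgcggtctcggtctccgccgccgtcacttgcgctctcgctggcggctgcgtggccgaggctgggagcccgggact
The capitals mark ACGTG, the core of the hypoxia response element, on both strands at once in Irs2, Flrt2 and Cpne4, where the letters CACGTG are also those of an E-box. In Lrrc4c they mark TGANTCA, the AP-1 motif of Fos and Jun proteins. The second capital stretch in Cpne4 matches the core of the CTCF motif (CCA, then AG, then GGC, with 2 free bases between each), on the reverse strand. The promoters of Grik2, Gria2, Nectin3, Btbd3, Mrpl3 and Col11a1 and a second one of Cpne4 had no match to any motif searched, which says only that these letters are not in those windows.

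The libraries held 34974213 PETs in sham and 40550536 in MCAO, a ratio of 1.16. MCAO-only loops made up 33.4% of the well supported MCAO loops (996 of 2978; 31.8 to 35.2). The same rule applied in the other direction left 608 of 2452 sham loops with no MCAO counterpart, 24.8% (23.1 to 26.6), and these are called sham-only. When the MCAO minimum was raised to 25 PETs to allow for depth, 572 of 2011 MCAO loops remained without a counterpart (28.4%), so the larger number was then the sham one. On the X chromosome, which the rule leaves out, 8 of 22 MCAO loops and 7 of 32 sham loops of at least 21 PETs had no counterpart. The number of MCAO-only loops follows from the rule and is a description.

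Most MCAO-only loops were near the lower end of the PET scale. Their median was 25 PETs (range 21 to 105), against 29 (21 to 238) for partnered loops. The share without a counterpart fell from 43.5% (500 of 1149) at 21 to 25 PETs to 36.5% (239 of 655) at 26 to 30, to 231 of 888 at 31 to 50 and to 9.09% (26 of 286) above. At the PET threshold, 145 members had exactly 21 PETs, with a median span of 312 kb, and 194 loops with 20 PETs had no counterpart and a median span of 353 kb. At the distance threshold, 37 members had their nearest sham loop 2 to 2.1 widths away (median span 516 kb), and 47 partnered loops had it 1.9 to 2 widths away (513 kb). The loops on either side of the distance limit were thus alike in span. At the PET limit the members had the shorter median.

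Anchor width fell into separate classes. Only 17 MCAO-only loops had a mean anchor width of 30 to 40 kb, so loops under 35 kb are called narrow (390, or 39.2%) and the others wide (606). Among narrow loops 35.3% of the MCAO list (390 of 1104; 32.5 to 38.2) and 14.3% of the sham list (74 of 516; 11.4 to 17.7) had no counterpart. Among wide loops the shares were 32.3% (606 of 1874) and 27.6% (534 of 1936). With an MCAO minimum of 25 PETs the narrow share was 29.8% (188 of 631), and with 31 PETs in both lists it was 24.9% (71 of 285) against 5.04% (6 of 119) in sham. Among wide loops the MCAO share with 25 PETs was 27.8% (384 of 1380), close to the sham 27.6% at 21 PETs. With 31 PETs in both lists the wide shares were 20.9% (186 of 889) and 13.8% (127 of 923). The gap between the lists was therefore wider among narrow anchors than among wide ones at each of these minimums. The well supported MCAO list also held more narrow loops in all, and how far that gap follows from the numbers of narrow loops in the lists was not tested.

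MCAO-only loops were shorter than partnered ones. The distance between anchor midpoints had a median of 386 kb (364 to 408), quartiles of 192 and 558 kb and a range of 46.3 to 3440 kb. For partnered loops the median was 552 kb (535 to 571), and for sham-only loops 466 kb. Loops over 1 Mb were 60 of the MCAO-only loops (6.02%) and 323 of the partnered ones (16.3%). The order held within each width class: narrow MCAO-only loops had a median of 161 kb (155 to 170) against 199 kb (191 to 211) for partnered ones, and wide ones 507 kb (487 to 526) against 716 kb (700 to 737). Sham loops of at least 21 PETs had the same order, with 466 kb for sham-only loops and 611 kb for those with an MCAO counterpart. Among narrow sham loops the medians were 138 and 186 kb, and among wide ones 497 and 718 kb. A shorter span was thus not particular to MCAO-only loops. Since the distance allowed to a partner grows with anchor width, width is part of the rule, and these values are descriptions.

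**Figure D1:**
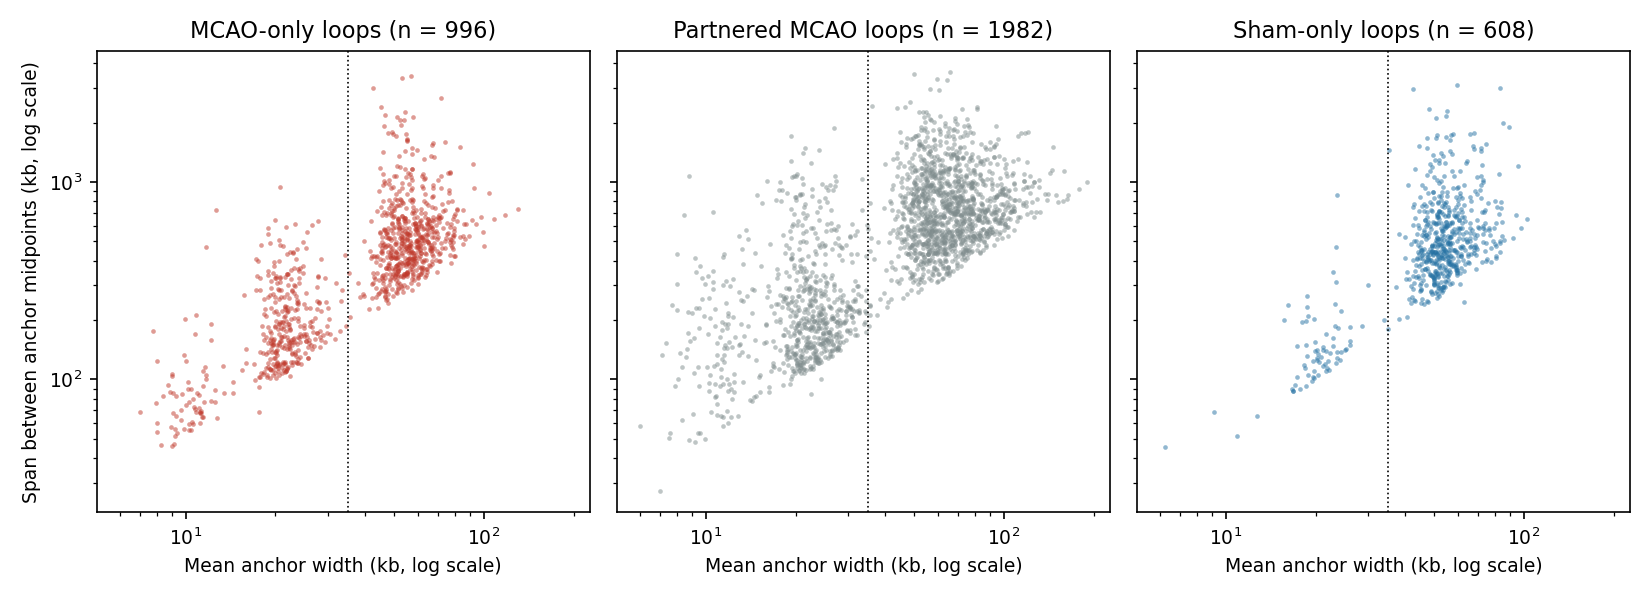
Each point is a loop of at least 21 PETs, placed by its mean anchor width (x axis, kb, log scale) and the span between its anchor midpoints (y axis, kb, log scale), for the 996 MCAO-only, 1982 partnered and 608 sham-only loops. The dotted line at 35 kb divides narrow from wide anchors. The MCAO-only panel has a dense narrow cloud, with 390 loops, where the sham-only panel has 74.

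The authors' ratios per loop had medians that were close in both classes and somewhat lower in MCAO-only loops. The deposited enrichment ratio had a median of 4.4 in MCAO-only loops and 4.8 in partnered ones, and the deposited ratio called P2LL 3.33 and 3.40. Anchors held a median of 24.2 and 24.1 reads per kb. Within the MCAO-only set, narrow loops had the higher enrichment ratio, 7.33 against 3.54 for wide loops. Read density at the anchors thus did not separate the unpartnered from the partnered loops.

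The sham loop nearest in kb, by the larger of its midpoint distances at either side, lay a median of 182 kb away (178 to 188, range 17.1 to 993). The sham loop nearest in anchor widths, which can be another loop, lay a median of 3.70 widths away. In 340 members (34.1%) it lay 2 to 3 widths away, in 301 (30.2%) over 5 widths and in 72 (7.23%) over 10. These sham loops nearest in widths had a median of 14 PETs, and 250 of them had at least 21. Narrow members were farther in widths than wide ones (median 4.89 against 3.41) and nearer in kb (141 against 204).

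**Figure D2:**
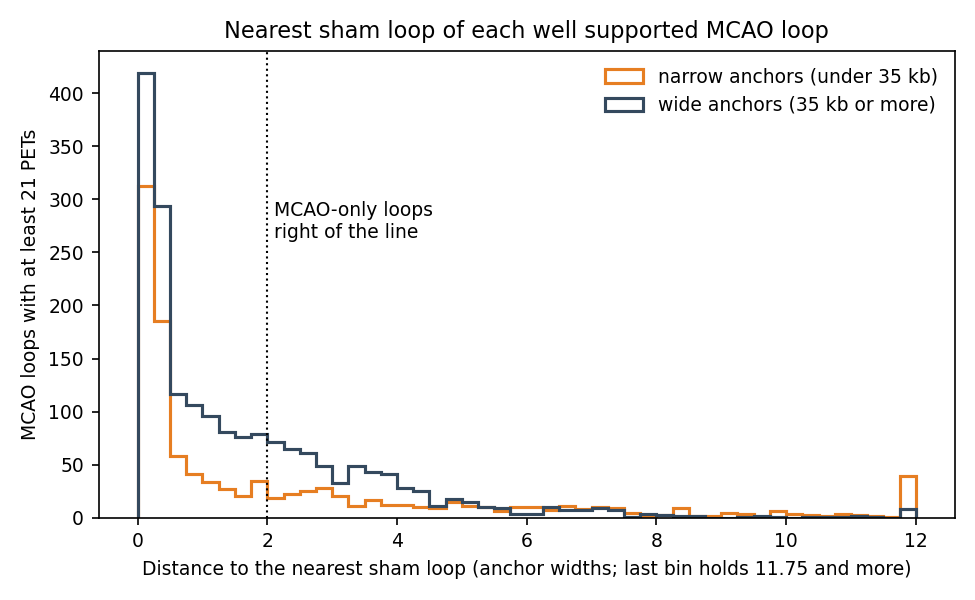
The distance from each of the 2978 well supported MCAO loops to its nearest sham loop is shown in anchor widths (x axis; the last bin holds all greater distances) against the number of loops (y axis), for narrow and wide anchors. MCAO-only loops lie to the right of the dotted line at 2 widths, where the numbers fall off without a gap at the line.

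Anchors of MCAO-only loops were also compared with sham anchors singly. Both anchors lay within 2 widths of some sham anchor in 703 members (70.6%; 67.6 to 73.4), against 73.8% of all MCAO loops, which include the partnered ones at 100% by the rule, and 57.0% of unpartnered loops under 21 PETs. A single anchor did in 252 (25.3%) and neither did in 41 (4.12%). Among narrow members both anchors did so in 55.4%, and among wide ones in 80.4%. In 878 members (88.2%; 86.0 to 90.1) at least 1 sham loop shared an anchor at the same side and had its other end elsewhere. The closest such loop had that end at a median of 185 kb from the member's other anchor, and was shorter than the member in 432 cases and longer in 446. Among narrow members it was more often longer (191 against 113), and among wide ones more often shorter (319 against 255). A sham loop lay wholly inside 504 members (50.6%) and around 583 (58.5%), while 47 members, 42 of them narrow, overlapped no sham loop. Sham anchors are dense along the chromosomes, the share expected at any position was not computed, and the lack of the pair is the rule itself, so these shares are descriptions.

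Loops may also lie beside other loops of their own list. Another MCAO loop of any PET number lay within 2 widths of 352 members (35.3%), and another member lay that close to 92 (9.24%). Such neighbours share anchors and are not independent of each other.

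MCAO-only loops reached genes about as often as partnered loops and more often than sham-only loops. In 732 members, 73.5% (70.6 to 76.2), at least 1 anchor came within 2.5 kb of where a protein-coding gene starts or stops (a gene end). The share was 76.7% (74.8 to 78.5) in partnered loops, 53.9% (49.9 to 58.0) in sham-only loops and 56.1% in MCAO loops of under 21 PETs with no counterpart. Over whole lists it was 61.1% in MCAO and 52.4% in sham, so the lists differ in the same direction as a whole. The difference between MCAO-only and sham-only loops was 19.5 percentage points (14.7 to 24.3). Among narrow loops it was 10.9 points (0.384 to 22.8), from shares of 78.5% and 67.6%, and among wide loops 18.2 points, from 70.3% and 52.1%. Counted at transcription starts in place of either end, the difference was 9.89 points. The depth-scaled minimum of 25 PETs left 77.1% of MCAO-only loops at a gene end. Both anchors lay at gene ends in 266 members (26.7%, against 28.5% of partnered loops). No part of a gene was touched by 152 members (15.3%), against 10.9% of partnered and 26.6% of sham-only loops.

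The share of loops without a counterpart rose with gene density in MCAO and not in sham. In windows of 1 Mb with 0 to 2 genes it was 28.1% (262 of 934) in MCAO and 29.4% (278 of 947) in sham. With 3 to 5 genes it was 32.3% and 23.3%, and with 6 to 11 genes 34.9% and 19.8%. With 12 to 67 genes it was 41.1% (257 of 626; 37.2 to 45.0) in MCAO and 23.0% (81 of 352; 18.7 to 27.8) in sham. MCAO-only loops shortened along the same series, with median spans of 508, 443, 328 and 187 kb. The share at a gene end rose from 55.3% to 71.9%, 79.2% and 87.5%. The numbers of well supported loops per window class also differed between the lists, and their part in this was not tested.

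**Figure D3:**
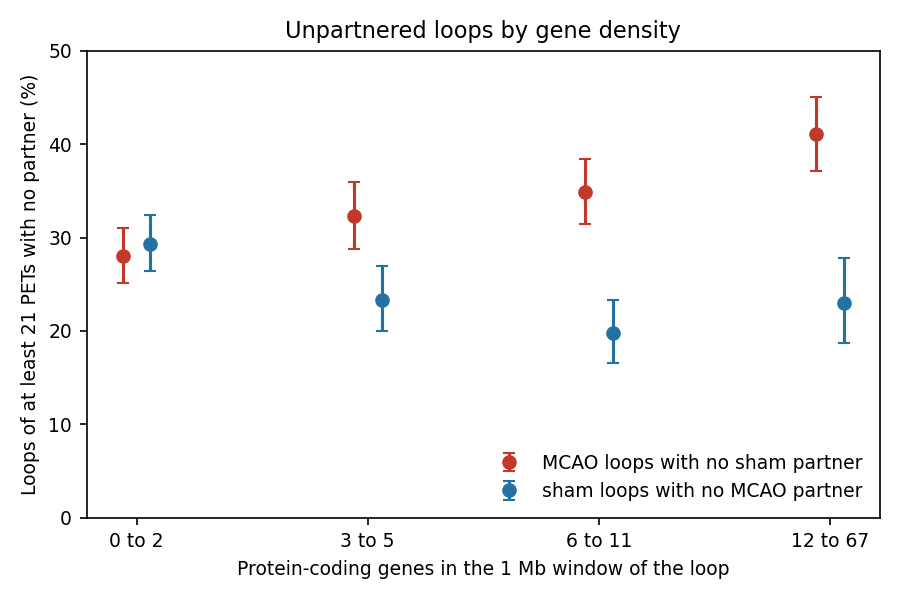
Points give the share of loops of at least 21 PETs without a counterpart in the other list (y axis, %), by the number of protein-coding genes in the 1 Mb window that holds the loop's midpoint (x axis), with exact 95% intervals for counting error. MCAO rises from 28.1% to 41.1%, while sham goes from 29.4% to 23.0%.

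Every autosome held MCAO-only loops, from 21 on chromosome 19 to 74 on chromosome 2. As a share of well supported loops they ranged from 27.2% (62 of 228) on chromosome 1 to 40.4% (57 of 141) on chromosome 10. Chromosome 10 had an interval of 32.3 to 49.0 and chromosome 1 of 21.5 to 33.5, so these extremes overlapped. Per 100 Mb, chromosome 11 had the most, 58.2, and chromosome 1 the fewest, 31.8.

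Along the chromosomes 283 members (28.4%; 25.6 to 31.3) fell into 123 clusters linked by overlapping anchors. Of these clusters 91 had 2 loops, 28 had 3, 3 had 4 and 1 had 5. Partnered loops were clustered more often, at 57.6% in groups of up to 13, and sham-only loops less often, at 18.1% in groups of up to 4. A set with more loops forms more clusters, so the shares of sets of different size are given side by side only.

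The cluster with the most loops lay on chromosome 11 (63337867 to 64983519), with 5 MCAO-only loops of 21 to 35 PETs. Its anchors reached Hs3st3a1 and Hs3st3b1, which encode sulfotransferases of heparan sulfate, and Elac2, which encodes a tRNA-processing enzyme. The stretch held 15 MCAO loops in all and 4 sham loops, the latter with 38, 11, 11 and 10 PETs. The sham loop of 38 PETs, spanning 493 kb, had a counterpart in MCAO of 12 PETs.

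The cluster around Irs2 on chromosome 8 (10415454 to 11202146) had 4 MCAO-only loops of 58, 35, 31 and 23 PETs. The loop of 58 PETs joined 10415454 to 10500466 with 10962642 to 11035478 across 541 kb. The loop of 31 PETs joined 10565278 to 10589537 with the same gene across 431 kb. The loop of 35 PETs ran from Irs2 in the other direction, across 171 kb, to 11166869 to 11194373, near Col4a1, the gene of a collagen chain of vessel basement membranes. In sham the only loop at an end of Irs2 spanned 98.3 kb and had 10 PETs, the lowest number a list holds. The other 3 sham loops in the stretch had 20, 18 and 10 PETs. The anchors at 10565278, at 11166869 and at Irs2 each lay near an anchor of some sham loop, in other pairs.

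**Figure D4:**
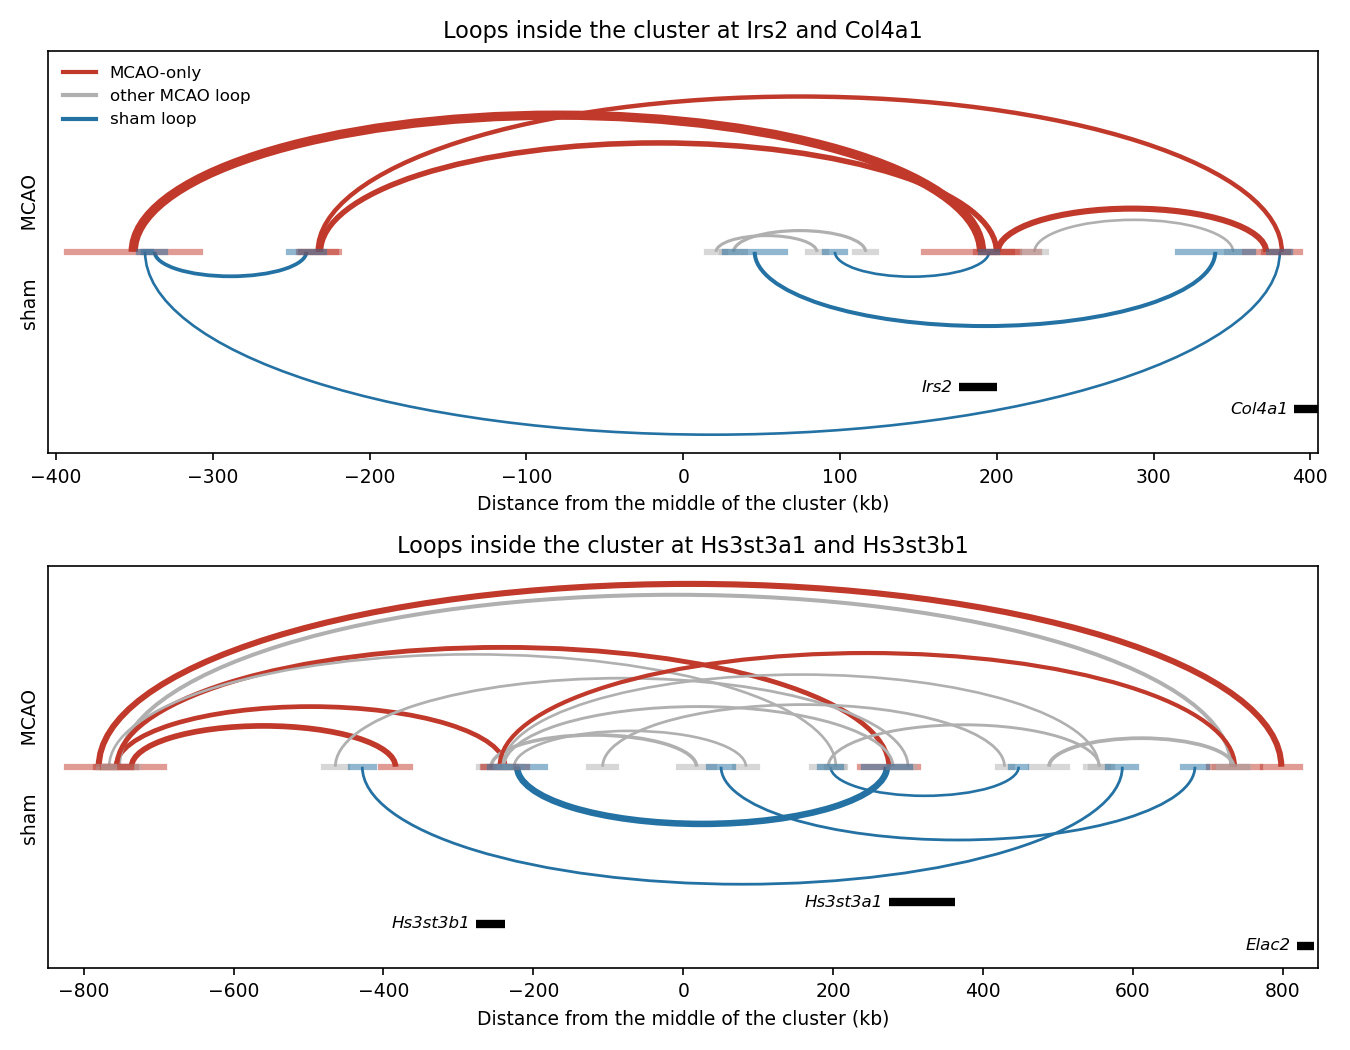
Arcs join the anchor midpoints of all loops inside 2 clusters, MCAO above and sham below the line, against the distance from the middle of the cluster (x axis, kb); line thickness grows with PETs, coloured bars on the line are anchors and black bars are genes. At Irs2 the 4 MCAO-only loops (23 to 58 PETs) stand against 4 sham loops of 10 to 20 PETs. In the cluster at Hs3st3a1 and Hs3st3b1 the 5 MCAO-only loops have 21 to 35 PETs, and the thickest sham loop has 38.

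The third cluster lay on chromosome 2 (67501652 to 68808273) with 4 loops of 47, 38, 27 and 25 PETs, and reached B3galt1, a galactosyltransferase gene, Xirp2, which encodes an actin-binding protein of muscle, and 4932414N04Rik. It held 6 sham loops, of which the strongest, with 59 PETs, had a counterpart in MCAO. The fourth, on chromosome 3 (135854776 to 137642894), had 4 loops of 40, 29, 28 and 21 PETs. It joined Slc39a8, the gene of a zinc and manganese transporter, to Ppp3ca, the gene of a catalytic subunit of the calcium-dependent phosphatase calcineurin, and also reached Ddit4l, an inhibitor of mTOR signalling. A further MCAO-only loop of 59 PETs lay inside it without an overlapping anchor. Its 10 sham loops had 10 to 22 PETs. The fifth, on chromosome 9 (67985134 to 69121361), had 3 loops of 105, 27 and 24 PETs that started at or just beyond an end of Vps13c, which encodes a lipid transfer protein, and held a single sham loop, of 18 PETs.

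The MCAO-only loop with the most PETs, 105, belonged to that cluster. It joined 67988263 to 68074014, at Vps13c, with 68674934 to 68849525 on chromosome 9. Both of its anchors lay near anchors of sham loops, and its nearest sham loop, of 18 PETs, was 2.56 widths away. The second, of 94 PETs, joined Nr3c1, the gene of the glucocorticoid receptor, to Yipf5, a Golgi protein gene, across 679 kb of chromosome 18. A second MCAO-only loop, of 42 PETs, linked the same genes, and no sham loop lay at an end of Nr3c1. The nearest sham loop to the 94-PET loop, of 17 PETs, was 2.48 widths away.

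The third, of 89 PETs, lay on chromosome 7 between 3595026 to 3713318 and 4087866 to 4169256. It had 15 genes at its anchors, among them Rps9, for a ribosomal protein, Cnot3, for a subunit of the CCR4-NOT deadenylase, and Ttyh1, for a membrane protein of neural cells. Its enrichment ratio, 11.1, and P2LL ratio, 17.8, were the highest of the 10 loops with the most PETs. The region holds families of similar immune receptor genes such as Pirb, where reads may map to several copies, and the sources used here do not say how such reads were handled.

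The fourth, of 80 PETs, lay on chromosome 8 and ran within Nrg1, the gene of a ligand of ErbB receptors, from 32219984 to 32323301 to one end of the gene at 32862350 to 32974997. Its nearest sham loop, of 14 PETs, was 2.21 widths away. The fifth, of 72 PETs, started at Pik3r1, the gene of a regulatory subunit of PI3 kinase, on chromosome 13. Only its anchor at Pik3r1 lay near a sham anchor. The sixth, of 68 PETs on chromosome 19, joined Vti1a, a SNARE protein gene, and Zdhhc6, a palmitoyltransferase gene, to Habp2, which encodes a serine protease.

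The seventh, of 67 PETs on chromosome 3, ended at Gria2, the gene of the AMPA receptor subunit that limits calcium entry. Its nearest sham loop had 31 PETs and was 2.52 widths away. The eighth, of 64 PETs on chromosome 5, joined Usp12, a deubiquitinase gene, to an anchor with Flt3, a receptor tyrosine kinase gene, the homeobox genes Cdx2 and Pdx1, and Urad. The ninth, of 62 PETs, started at Cdh11, a cadherin gene, on chromosome 8, where the sham list held a longer loop of 153 PETs that had a counterpart in MCAO. The tenth, of 61 PETs on chromosome 3, joined Rnpc3, which encodes a protein of the minor spliceosome, to Col11a1, a fibrillar collagen gene. All 10 were wide, and the nearest sham loop to each had 10 to 31 PETs.

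Ranked by the authors' hypergeometric p-value within the list, 5 further loops came among the first 10. They were narrower, with 43 to 51 PETs. They lay at Anks6, a cilium protein gene, on chromosome 4 (51 PETs, 345 kb), at Gdf10 and Gdf2, genes of the TGF-beta family, and Rbp3 on chromosome 14 (50 PETs, 250 kb), and at Mab21l3 on chromosome 3 (44 PETs, 309 kb). The others lay at Kcng1, a potassium channel subunit gene, on chromosome 2 (43 PETs, 186 kb), and between Ass1, which encodes argininosuccinate synthase, and Abl1, a tyrosine kinase gene, with Exosc2 and Prdm12 (43 PETs, 187 kb). The loop at Gdf10 was 10.6 widths from any sham loop, and the one at Kcng1 was 2.31.

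The 5 members farthest from any sham loop were narrow and had 22 to 36 PETs. The farthest, of 24 PETs, started at Samm50, which encodes a protein of the mitochondrial outer membrane, on chromosome 15 and was 39.5 widths from the nearest sham loop. A loop of 36 PETs ending at almost the same place (84592523 to 84621964) touched no gene end and was 21.5 widths away. A loop of 22 PETs at Trip13, a mitotic checkpoint ATPase gene, on chromosome 13 spanned 75.8 kb and was 30.2 widths away. A loop of 23 PETs on chromosome 11 (67991444 to 68006006 with 68398349 to 68418283) touched no gene end and was 602 kb from the nearest sham loop. A loop of 35 PETs between Galnt17, a glycosyltransferase gene, and Auts2, a gene of neuronal development, on chromosome 5 was 22.3 widths away. The Galnt17 anchor of this last loop lay near a sham anchor, and no anchor of the other 4 did.

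At least 1 MCAO-only loop lay at an end of 1383 of 20661 autosomal protein-coding genes, 6.69%, against 12.3% with a partnered loop and 3.27% with a sham-only loop. Of the 1383 genes 105 had 2 or more and 10 had 3. No sham loop of any PET number lay at an end of 572 of them (41.4%), against 55.5% of all autosomal genes. A partnered MCAO loop lay at 295 (21.3%) and a sham-only loop at 71 (5.13%). Of the genes with a partnered loop, 5.75% had a sham-only loop, close to that 5.13%.

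Receptor and adhesion genes were among the 10 genes with 3. Sham loops of a gene are counted here and below at its ends only. Grik2, the gene of a kainate receptor subunit on chromosome 10, had loops of 41, 24 and 22 PETs. The loop of 41 PETs joined both ends of the gene across 651 kb. The sham list had a single loop at an end of Grik2, of 19 PETs and 3770 kb long. The stretch of the 3 MCAO-only loops was overlapped by 9 sham loops. Of these, 2 lay wholly inside it, with at most 10 PETs. Lrrc4c had loops of 40, 34 and 23 PETs, and 6 sham loops of 10 to 64 PETs. Its loop of 40 PETs began at the promoter shown above and ended 1109 kb away inside the gene, 2.05 widths from the nearest sham loop. Flrt2 had loops of 31, 28 and 22 PETs, all at its promoter end, and 8 sham loops of 10 to 25 PETs. Nectin3, an adhesion gene on chromosome 16, had loops of 28, 25 and 24 PETs and 3 sham loops of 20, 29 and 40 PETs. The sham list thus held loops at each of these adhesion genes.

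The other genes with 3 had varied roles. Irs2 is described above. Slc39a8 had 40, 29 and 28 PETs and 3 sham loops of 10 to 15. Btbd3, which is known to orient dendrites of cortical neurons, had 37, 33 and 22 PETs and sham loops of 38 and 13. Kazn, for a protein of cell junctions, had 28, 28 and 21 PETs and sham loops of 25 and 12. The neighbours Ccdc59 and Mettl25 shared 3 loops of 51, 50 and 25 PETs, and had 3 and 5 sham loops.

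Among genes with 2, Gria2 had 67 and 31 PETs in MCAO-only loops and 5 sham loops of 10 to 46. Cpne4 had 56 and 33, with a sham loop of 30 PETs at its promoter end. Mrpl3, a mitochondrial ribosomal protein gene beside Cpne4, shared both of those loops and had no sham loop. Ppp3ca had 59 and 40 PETs, Slco3a1, an organic anion transporter gene, 53 and 42, Cdh11 62 and 24, and Col11a1 61 and 23. Slco3a1 had a sham loop of 54 PETs, while those at Ppp3ca and Col11a1 had at most 16 and 12.

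Loops with both anchors in the same gene made up 114 of the members (11.4%; 9.53 to 13.6), against 8.22% of partnered loops, 10.0% of sham-only loops, 12.9% of all MCAO loops and 15.5% of unpartnered MCAO loops under 21 PETs. They lay in 106 genes, whose median length was 499 kb, against 17.2 kb for all genes. After Nrg1 the strongest were in Atp8a2, which encodes a phospholipid flippase (60 PETs), Cpne4 (56), Nell1, which encodes a secreted growth regulator (53), Sema6d, a guidance cue gene (48), Grm5, a metabotropic glutamate receptor gene (47), Slco3a1 (42), Asic2, an acid-sensing channel gene (41), and Grik2 (41). Only a gene longer than the loop can hold both anchors, so length is part of this choice.

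Gene lists for stress, synapse and development were counted by the share of autosomal members with an MCAO-only loop at an end, beside 6.69% of all genes. Differences between lists were not tested. Immediate early genes had 3 of 32 (9.38%): Jun (28 PETs), Myc (31 and 28) and the clock gene Per1 (26). Jun and Myc also had partnered loops, as did 28.1% of the list. The strongest sham loops had 25 PETs at Jun, 59 at Myc and 13 at Per1. Heat shock and chaperone genes had 2 of 18 (11.1%). Hsp90aa1, an inducible chaperone gene, had a loop of 36 PETs across 146 kb and no sham loop, and Hsf2, a heat shock transcription factor gene, had a loop of 35 PETs and 2 sham loops of at most 15. Hypoxia response genes had 2 of 19 (10.5%, interval 1.30 to 33.1). They were the glucose transporter gene Slc2a1 (35 PETs, a single sham loop of 10) and the vasodilator peptide gene Adm (24 PETs, no sham loop). Partnered loops lay at 31.6% of the hypoxia list, against 12.3% of all genes, and sham-only loops at none of it. The hypoxia count is therefore not read as belonging to the MCAO-only loops. Cytokine and innate receptor genes had 1 of 26, Il17b with 21 PETs, and cell death genes 0 of 20.

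Cadherin and synaptic adhesion genes had 11 of 44 (25.0%; 13.2 to 40.3), with 18 distinct loops. Besides those named above they were Cdh4, Cdh8, Lrrtm1, Ncam1, Ncam2, Pcdh15 and Tenm4, with 21 to 32 PETs. The strongest sham loop at each of these had 10 (Tenm4) to 44 PETs (Ncam2). Homeobox and Sox genes had 11 of 41 (26.8%; 14.2 to 42.9), among them the interneuron regulators Dlx5 and Dlx6, which shared a loop of 51 PETs, Six3 (42), Nkx2-1 (32; no sham loop), Sox11 (31), Meis1 and Lmo4 (27 each), Pax6 (25; no sham loop), Nfib (24) and Meis2 (21). The strongest sham loops had 55 PETs at Dlx5 and Dlx6, 41 at Six3, 90 at Lmo4 and 65 at Nfib. At Sox11, Meis2 and Meis1 they had 36, 28 and 25. Axon guidance genes had 7 of 36 (19.4%), led by Sema6d (48) and the ephrin receptor gene Ephb2 (36). Plxna2, Plxna4, Sema6a, Nrp2 and Efnb2 had 23 to 27. The strongest sham loop at each axon guidance gene named had 12 (Ephb2) to 47 PETs (Sema6a). Neurotrophic factors and receptors had 5 of 24 (20.8%). They were Nrg1 (80), the neurotrophin receptor gene Ntrk3 (35), Igf1 and Gfra2 (25 each) and the Nrg1 receptor gene Erbb4 (23). Sham loops reached 34 PETs at Gfra2, 31 at Erbb4 and 14 at Ntrk3, while Nrg1 and Igf1 had none at an end.

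Glutamate and GABA-A receptor genes had 6 of 33 (18.2%), among them Gria2, Grik2, Grm5 (47), Gabrb2 (31) and Grin2c (24). Sham loops reached 57 PETs at Grm5, 44 at Gabrb2 and 10 at Grin2c. Ion channel genes had 6 of 40 (15.0%), among them the potassium channel genes Kcnc2 (40) and Kcnt1 (31), both with no sham loop. The sodium channel gene Scn1a (27), Kcnq3 (24) and Kcnn2 (22) were also among them. Their strongest sham loops had 25, 19 and 43 PETs, in that order. Synaptic genes had 3 of 21: the vesicular glutamate transporter gene Slc17a7 (31; no sham loop), the vesicle fusion gene Vamp2, which shared a loop of 26 PETs with Per1, and the kinase gene Camk2a (23). Camk2a had sham loops of up to 25 PETs, and Vamp2 had none at an end. Chromatin architecture genes had 4 of 15, among them the lamin gene Lmnb1 (34) and Hnrnpu and Top2b (21 each). Sham loops reached 42 PETs at Lmnb1, 31 at Hnrnpu and 36 at Top2b.

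The adhesion, homeobox and Sox, axon guidance, receptor and neurotrophic lists were also above all genes in the other loop classes. So were the ion channel, synaptic, chromatin architecture and immediate early lists. The counts of all these lists are therefore not read as belonging to the MCAO-only loops. Partnered loops lay at 45.5% of the adhesion genes, 46.3% of the homeobox and Sox genes and 47.2% of the axon guidance genes, against 12.3% of all genes. Sham-only loops lay at 18.2%, 12.2% and 8.33%, against 3.27%. For the glutamate and GABA-A receptor genes the shares were 39.4% partnered and 21.2% sham-only, the latter above their 18.2% with an MCAO-only loop, and for the neurotrophic genes 33.3% and 16.7%. Cell type markers were counted beside the 6.69% of all genes. MCAO-only loops lay at 3 of 10 excitatory neuron genes (Slc17a7 and Bcl11b among them) and 2 of 11 inhibitory neuron genes (Dlx5 and Dlx6, through 1 loop). They also lay at 1 of 10 astrocyte genes (S100b), 1 of 8 oligodendrocyte lineage genes (Pdgfra) and 1 of 7 microglia genes (Aif1). None of 7 endothelial or 7 leukocyte genes had any. Partnered loops lay at 5 of the excitatory, 3 of the inhibitory and 4 of the astrocyte genes. They also lay at 1 oligodendrocyte lineage and 1 leukocyte gene, and at no microglia or endothelial gene. Sham-only loops lay at no marker. The marker counts are therefore not read as belonging to the MCAO-only loops. A loop at a marker gene does not measure the cell type's share of the tissue.

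**Figure D5:**
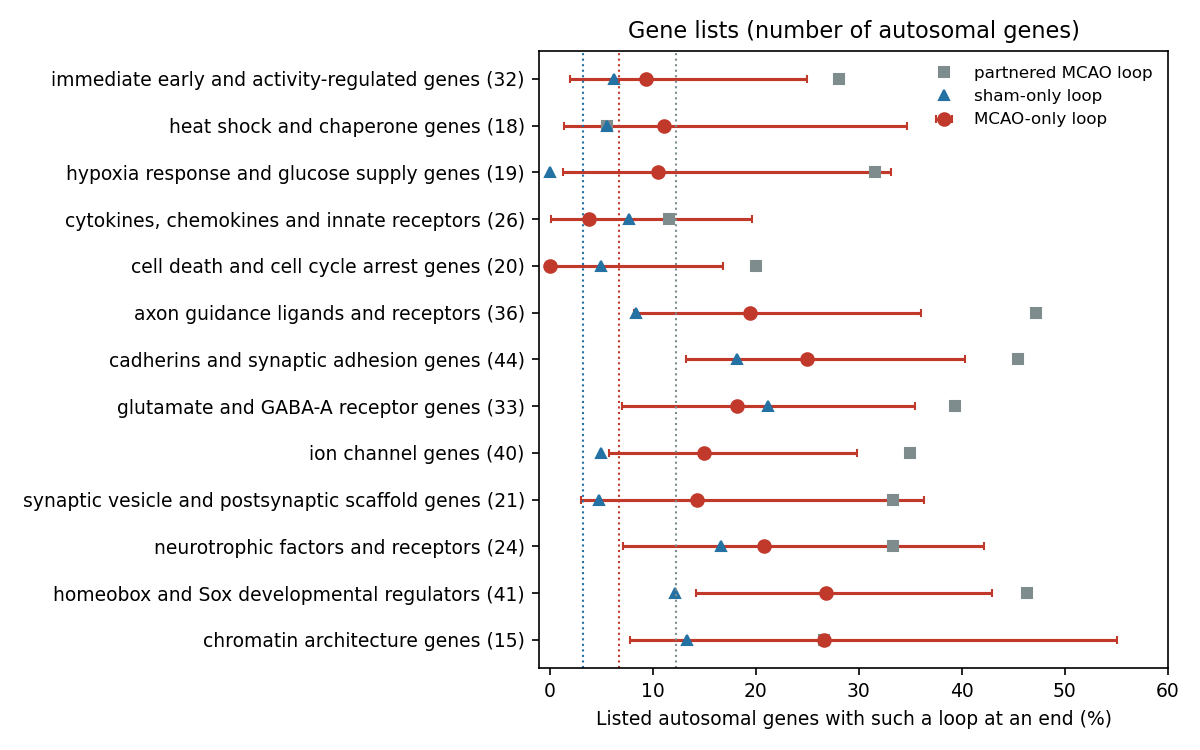
For each gene list, with its number of autosomal genes, the share of genes with a loop at an end (x axis, %) is shown for MCAO-only loops (circles, exact 95% intervals), partnered MCAO loops (squares) and sham-only loops (triangles). Dotted lines give the shares of all autosomal genes, 6.69%, 12.3% and 3.27%. The adhesion, homeobox and Sox, and axon guidance lists lie to the right of the lines in all 3 classes. The immediate early, receptor, ion channel, synaptic, neurotrophic and chromatin architecture lists do so too.

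Motifs were counted on both strands in the promoters whose start lay inside an anchor, 800 promoters of 681 genes for MCAO-only loops and 1648 promoters for partnered ones, beside 20084 autosomal promoters. The CTCF core (CCA, then AG, then GGC, with 2 free bases between each) was in 3.00% (1.93 to 4.43) of the MCAO-only promoters, 2.67% of the partnered and 2.39% of all. The AP-1 motif TGANTCA was in 4.88% (3.49 to 6.60), 6.37% and 7.06%. The cyclic AMP response element TGACGTCA was in 2.88%, 3.16% and 2.30%. The hypoxia core ACGTG was in 22.5%, 24.1% and 21.1%. The heat shock element (GAA, then TTC, then GAA, with 2 free bases between each) was in 0.50%, 0.243% and 0.538%, and the EGR motif GCGGGGGCG in 5.13%, 4.92% and 3.95%. MCAO-only promoters had a mean GC content of 59.9%, against 58.7% for partnered ones and 56.5% for all, and the part of base composition in these shares was not tested. The AP-1 interval of MCAO-only promoters lay below the share of all promoters and included that of partnered ones. A match describes the letters of these windows, and anchors span far more sequence than the promoters searched.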

How the data were processed

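The data are 1 deposited loop list per group, with groups taken from the sample titles. HiC-Pro, Bowtie2 and the build mm10 are named, without versions, per the submitters' processing notes. The sources used here do not give the loop caller, its settings or how the 3 cortices were combined. PETs per loop and reads per anchor are whole counts that the authors deposited unscaled. The deposited density signal, which fits PETs scaled by anchor length and depth, gave each library's total. The enrichment ratio, the P2LL ratio, the p-value and the FDR (at most 0.05) are the authors' deposited values and served only to describe or rank loops within the list. Coordinates are as deposited, and whether starts count from 0 or 1 is not stated.

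Distances were taken between anchor midpoints. Gene positions came from RefSeq protein-coding genes on GRCm38.p6, without strand, so either gene end was used. Of the 1383 genes with an MCAO-only loop, 1051 had a promoter sequence. Shares have exact Clopper-Pearson intervals, medians order-statistic intervals and differences of shares Newcombe intervals. Whether PETs are independent molecules is not known, so intervals cover counting error only. Python 3.11.15, pandas 2.3.3, numpy 2.4.6 and scipy 1.17.1 were used. The matching code was run on copies of MCAO loops shifted by less than 1 anchor width. Correct code must find a partner within 2 widths for all of these, so this checks the code only and not the choice of rule.

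The loops named were the 10 with the most PETs, the 10 with the smallest p-value, the 5 farthest from sham and the 5 clusters with the most loops. The genes named were those at their ends, up to 20 genes with 2 or more loops, and listed genes with a loop. The members, lists and alternatives were chosen with earlier results of these data known. A few genes selected in this way are not reported here.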

Additional observations from a re-analysis of the deposited data

How the results depend on the processing

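Of 83 alternative values 35 stayed within the main value's interval or within 1.5 times the main count, and none changed the sign of the gene-end difference. The depth-scaled minimum turned the order of MCAO-only and sham-only loop numbers, 572 against 608. The number of MCAO-only loops was 656 with partners sought within 3 widths, 2839 with at least 15 PETs, 257 with 31 and 572 with the depth-scaled minimum. It rose from 996 to 1445 with partners within 1 width and to 1454 within 50 kb, both under 1.5 times the main count. With partners within 1 width the median span was 430 kb, an anchor was used in sham in 97.2%, 38.1% were in clusters and the nearest sham loop was 145 kb away. Within 3 widths these were 353 kb, 93.8%, 20.6% and 215 kb, and within 50 kb they were 480 kb, 97.2%, 40.8% and 145 kb. With 15 PETs they were 312 kb, 94.1%, 46.2% and 172 kb, and with 31 PETs 480 kb, 97.7%, 17.5% and 199 kb. The depth-scaled minimum gave 431 kb and 22.7% in clusters. The share at a gene end was 67.3% with 15 PETs, 84.0% with 31 and 77.1% with the scaled minimum. It was 69.4% with no window, 78.6% with 10 kb, 84.7% with any part of the gene and 47.4% at transcription starts. With overlapping anchors 88.3% had an anchor used in sham. Clusters by midpoints within 500 kb and 1 Mb held 42.4% and 63.3%, and with both sides summed the nearest sham loop was 234 kb away. Narrow MCAO-only loops numbered 1471 with 15 PETs, 71 with 31 and 188 with the scaled minimum, and narrow sham-only loops 127 within 1 width, 688 with 15 PETs and 6 with 31. The gene-end difference between MCAO-only and sham-only loops was 14.5 points within 1 width, 13.0 within 50 kb, 11.4 with any part of the gene, 9.89 at transcription starts and 10.9 among narrow anchors. The cause of these shifts was not tested. Transcription starts, the counts of narrow loops and the gene-end difference were chosen after seeing the data.

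No paired analysis was possible because each group has a single loop list. Leaving out a replicate was not possible for the same reason. Sham contacts under 10 PETs are not listed, so a depth limit and an absent loop cannot be told apart.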
